A study of Mus musculus with 26 samples.

Results

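The genes described here are 7 transcription factors of the primitive endoderm: Gata6, Sox17, Gata4, Sox7, Foxa2, Foxq1 and Lmo2. They were taken by gene symbol from a table of 55254 symbols, and all 7 were found. The primitive endoderm is an epithelium that forms from the inner cell mass (ICM) of the mouse blastocyst beside the epiblast, and it later gives rise to the yolk sac endoderm. ICM cells at first carry both Gata6 and the epiblast factor Nanog. Fibroblast growth factor 4 (FGF4), made by epiblast cells, acts through FGF receptors and the kinase ERK and favours Gata6, after which Sox17, Gata4 and Sox7 are known to appear in that sequence as cells commit.

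Messenger RNA was measured in 26 libraries, each from the ICM of 1 CD-1 mouse embryo, by FLASH-seq, a protocol that reads whole transcripts from the RNA of very few cells. E2.75 morulae were cultured in KSOM medium for 24 hours with the DMSO vehicle (5 ICMs), with 10 µM LY294002, an inhibitor of the kinase PI3K (LY, 7 ICMs), with FGF4 and heparin at 1 µg/ml (FGF4, 8 ICMs) or with LY and FGF4/heparin together (LY+FGF4, 6 ICMs). The labels name no allele or transgene, and the outer trophectoderm cells were to be lysed by immunosurgery. Embryos from 5 litters were mixed before they were shared out, so each library is a separate embryo of unnamed litter. Values are given as TPM (transcripts for every 1000000 in a library), which are shares of a library corrected for transcript length, so levels of different genes can be set side by side. The labels fix 1 stage for all libraries, and the early to late sequence of these factors is therefore read from which of them are present together, not from time points.

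The number of genes at a TPM of at least 1 ranged from 10212 to 11367 in DMSO and from 9860 to 10215 in LY, with 8315 to 10871 in FGF4 and 7486 to 9534 in LY+FGF4. The 6 libraries under 9000 genes were FGF4 replicates 2 and 3 and LY+FGF4 replicates 2, 3, 5 and 8. The relative depth, estimated from the spacing of low TPM values and set to 1 in the shallowest library, had a median of 1.92 in DMSO and 1.44 in LY, with 1.62 in FGF4 and 1.28 in LY+FGF4, and the deepest library, a control, reached 5.64. Of 17 trophectoderm markers, between 10 and 16 were at a TPM of at least 1 in DMSO and between 4 and 11 in LY+FGF4, so transcripts known from the outer layer were present after immunosurgery. The markers summed to 1403 to 2635 TPM in DMSO and 2027 to 2864 TPM in LY, against 551 to 1958 TPM in FGF4 and 672 to 2457 TPM in LY+FGF4. Epiblast and primitive endoderm markers were both present: 14 epiblast genes summed to 3381 to 4129 TPM in DMSO, where the receptor gene Pdgfra was at 52.8 to 118 TPM. The trophectoderm markers Elf5, Krt19 and Dppa1 were listed at 0 in all FGF4 libraries, and Gata2, Tfap2a, Elf5, Hand1, Id2 and Dppa1 in all LY+FGF4 libraries.

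On GRCm38, in the GENCODE M21 annotation, Gata6 spans 11052064 to 11085635 on chromosome 18, Sox17 4490931 to 4497354 on chromosome 1, and Foxq1 31556134 to 31560976 on chromosome 13. Gata4 (63198922 to 63271692) and Sox7 (63943673 to 63950732) lie on chromosome 14 with 671980 bases between them. Foxa2 (148042877 to 148046969) and Lmo2 (103957986 to 103981878) are both on chromosome 2. All 7 are protein-coding genes. Sox7 and Foxq1 have 1 annotated transcript each and the others 4 to 8, and TPM values are per gene.

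Gata6, Sox17, Gata4, Foxq1 and Sox7 were present in a nested order. Gata6 was at a TPM of at least 1 in 26 of 26 libraries, Lmo2 in 23, Sox17 in 22, Gata4 in 20, Foxq1 in 13, Sox7 in 5 and Foxa2 in 4. Every one of the 20 libraries with Gata4 also had Sox17, while 2 libraries, DMSO replicate 3 and LY replicate 6, had Sox17 without Gata4. All 13 libraries with Foxq1 had Gata4, and the 5 libraries with Sox7 and the 4 with Foxa2 all had Foxq1. Much of this goes with treatment: all 8 FGF4 libraries had Gata4 and Foxq1, and all 6 LY+FGF4 libraries had Gata4. Sox7 was found in FGF4 libraries alone, so it could not fall outside Foxq1. Outside the FGF4 and LY+FGF4 groups only DMSO replicate 8 had Foxq1. The nesting is thus in part an order of treatments, and an order within embryos was not tested. Sox7 and Foxa2 did not nest in each other, since only 1 library, FGF4 replicate 8, had both. Lmo2, which encodes an adaptor that bridges GATA factors and their DNA-binding partners, did not follow the series: LY replicates 4 and 8 had it without Sox17, and LY replicate 5 had Sox17 without it.

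The factors found in the fewest libraries were also the least abundant. Over the 26 libraries Sox17 averaged 349 TPM, Gata6 280, Gata4 56.9, Lmo2 47.4, Foxq1 9.50, Sox7 1.52 and Foxa2 0.917 TPM. The order was not the same throughout. Sox17 averaged more than Gata6 but was present in 22 libraries against 26, and Lmo2 less than Gata4 but in 23 against 20. These means include the libraries at 0. A scarcer transcript is listed at 0 more often at any depth, so how far the order of appearance follows from abundance cannot be told here. With a minimum of 5 TPM, Sox17 and Lmo2 were each present in 22 libraries, Gata4 in 15, Foxq1 in 10, Sox7 in 2 and Foxa2 in 1. Under that minimum LY+FGF4 replicate 6 had Foxa2 without Foxq1.

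The number of factors present separated the treatments in part. LY libraries held between 1 and 4 of the 7, with a median of 2, and DMSO libraries between 3 and 6, with a median of 4. FGF4 libraries held between 5 and 7, with a median of 6, and LY+FGF4 libraries between 4 and 6, with a median of 5. LY replicates 2 and 3 had Gata6 alone, and FGF4 replicate 8 was the sole library with all 7.

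**Figure D1:**
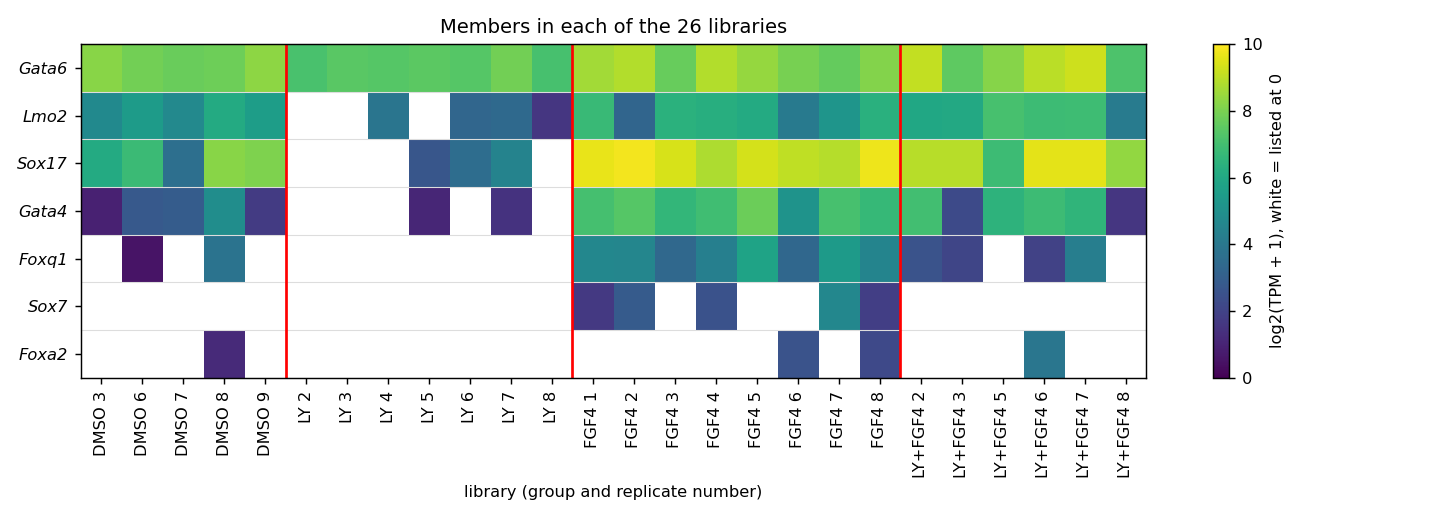
Level of each factor, as log2(TPM + 1) on the colour scale, in each of the 26 libraries (columns, grouped by treatment between the red lines, labelled by replicate number). White means listed at 0: Gata6 is filled in all 26 columns, Foxq1 is white in all 7 LY columns, and Sox7 is filled in 5 FGF4 columns and in no other group.

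Gata6, a zinc-finger factor and the earliest of the series, had the narrowest range. In DMSO it was at 294, 233, 210, 218 and 312 TPM, a mean of 253 ± 46.4 (SD, n = 5). In LY it ran from 135 to 232 TPM with a median of 164 (mean 168 ± 32.0, n = 7), and only LY replicate 7 reached into the DMSO range. The FGF4 libraries lay between 199 and 456 TPM with a median of 311 (mean 322 ± 105, n = 8), and LY+FGF4 libraries between 146 and 603 TPM with a median of 393 (mean 375 ± 194, n = 6). FGF4, LY+FGF4 and DMSO overlapped throughout, and the order of the means, LY, DMSO, FGF4 and LY+FGF4, holds no step larger than the spread other than that from LY to DMSO.

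Sox17, an HMG-box factor known for the maintenance of the lineage, varied most between treatments. In DMSO it was at 69.0, 110, 11.7, 299 and 266 TPM (mean 151 ± 125), so the controls differed among themselves far more than for Gata6. In LY it was listed at 0 in 4 of 7 libraries and was at 5.40, 11.03 and 21.02 TPM in replicates 5, 6 and 7. In FGF4 it ran from 431 to 910 TPM with a median of 663, above every DMSO library. With LY+FGF4 it ran from 115 to 768 TPM with a median of 487 (mean 492.5 ± 253), and the lowest of these, replicate 5, fell within the DMSO range.

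The ratio of Sox17 to Gata6 turned over between treatments. Sox17 amounted to 59.8 ± 52.5% of Gata6 in DMSO and 2.70 ± 3.79% in LY, but to 223 ± 72.3% in FGF4 and 152 ± 85.4% in LY+FGF4. It passed Gata6 in 1 of 5 DMSO, 7 of 8 FGF4 and 4 of 6 LY+FGF4 libraries, while in LY it reached at most 9.08%.

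Gata4, a zinc-finger factor of the same family as Gata6 that appears later, was at 0.880, 5.87, 6.53, 29.1 and 2.33 TPM in DMSO. In LY it was listed at 0 in 5 of 7 libraries, with 1.10 and 1.74 TPM in replicates 5 and 7. In FGF4 it ran from 34.1 to 216 TPM with a median of 128 (mean 126 ± 52.9), again above every DMSO library. The LY+FGF4 group was split: replicates 3 and 8 were at 3.77 and 1.97 TPM, inside the DMSO range, and replicates 2, 5, 6 and 7 were at 87.5 to 125 TPM. Sox17 in those low libraries was at 489 and 332 TPM, so Gata4 was low in them beside Sox17 above every DMSO library.

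Gata4 averaged 40.7 ± 18.003% of Gata6 in FGF4 and 15.9 ± 11.9% in LY+FGF4, against 4.004 ± 5.35% in DMSO and 0.197 ± 0.337% in LY. It stayed below Gata6 in all 26 libraries, with a highest ratio of 67.2%, unlike Sox17.

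Sox7, a close relative of Sox17 and the latest factor of the series, was listed at 0 in all DMSO, LY and LY+FGF4 libraries. In FGF4 it was at 2.20, 6.24, 4.81, 23.7 and 2.58 TPM in replicates 1, 2, 4, 7 and 8 and at 0 in replicates 3, 5 and 6. The level that 1 read would give for its transcript of 3299 bases was estimated at 0.243 to 0.847 TPM in DMSO and 0.865 to 1.29 TPM in LY+FGF4. Levels like those of FGF4 replicates 1 and 8 would thus have come from few reads, and the zeros elsewhere do not show that the gene was off.

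Foxa2, a forkhead factor of endoderm, was at 1.27 TPM in DMSO replicate 8, 4.87 and 3.58 TPM in FGF4 replicates 6 and 8 and 14.1 TPM in LY+FGF4 replicate 6, and at 0 in the other 22 libraries. With 4 libraries above the minimum it did not enter the test. Foxq1, another forkhead gene, was present in all 8 FGF4 libraries at 9.07 to 55.4 TPM, with a median of 22.6 (mean 25.6 ± 15.96). It was at 0.450 and 12.9 TPM in DMSO replicates 6 and 8 and at 0 in the other 3, and at 0 in all 7 LY libraries. In LY+FGF4 it was at 4.82, 3.29, 2.91 and 18.3 TPM in replicates 2, 3, 6 and 7 and at 0 in replicates 5 and 8, so that only replicate 7 came within the FGF4 range.

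Lmo2 was at 25.9, 44.0, 25.2, 68.5 and 46.2 TPM in DMSO. In LY it was at 0 in replicates 2, 3 and 5 and between 2.03 and 13.9 TPM in the other 4, below every DMSO library. In FGF4 it ran from 8.60 to 110 TPM with a median of 72.1, and in LY+FGF4 from 17.1 to 134 TPM with a median of 90.5. Both of these ranges took in the whole DMSO range. Lmo2 therefore stood at a moderate level in controls, without added FGF4, in contrast to Foxq1 and Sox7.

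**Figure D2:**
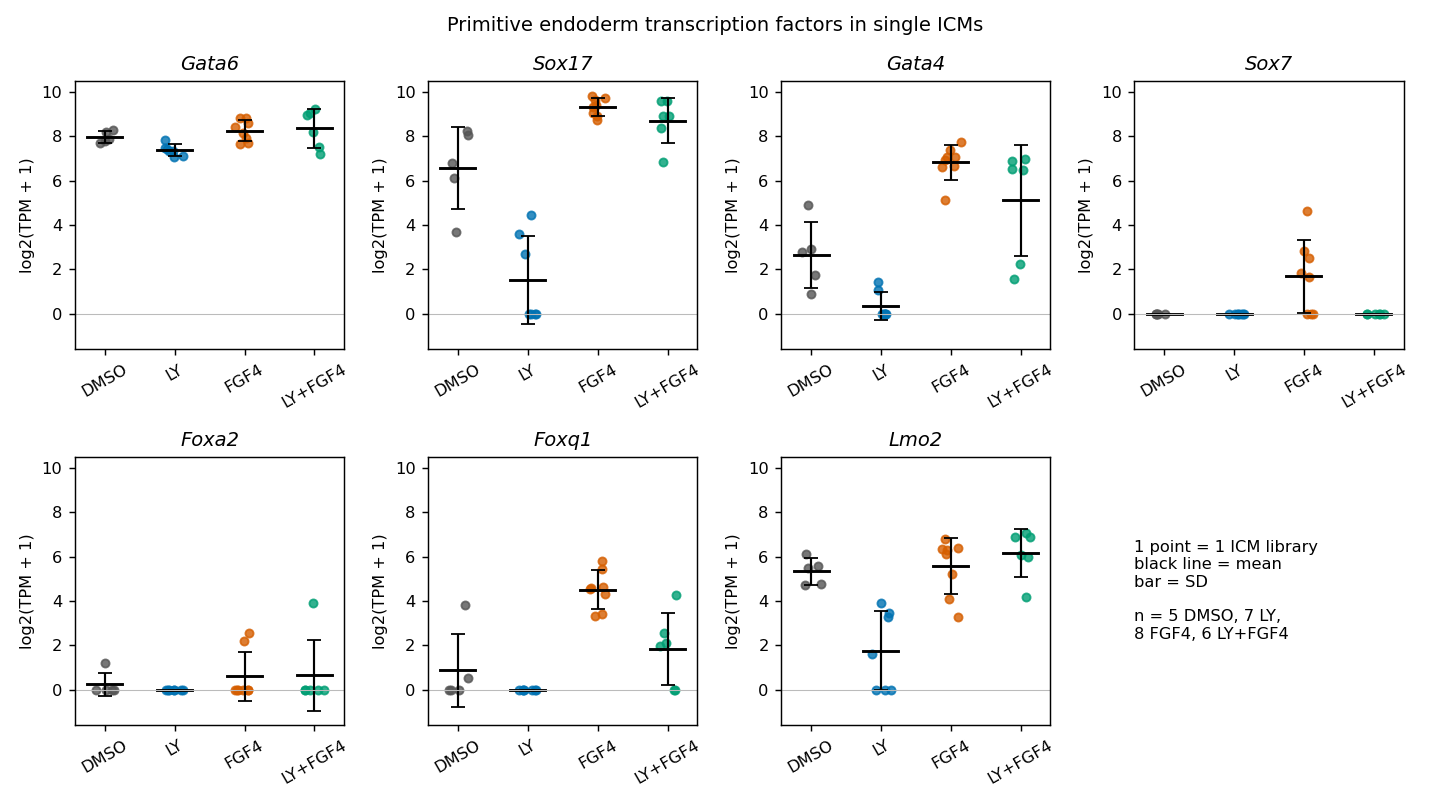
Each panel shows 1 factor as log2(TPM + 1) (vertical axis) in the 4 treatments (horizontal axis), with 1 point per library, the mean as a line and the SD as a bar (n = 5, 7, 8 and 6). Gata6 stays within a narrow band, while Sox17 is at 0 in 4 of 7 LY libraries and Gata4 in 5 of 7, and both are high in FGF4, and Gata4 in LY+FGF4 falls into 4 high and 2 low libraries.

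Differences between treatments were tested with limma on log2(TPM + 1), fitted on the 12034 genes that reached 1 TPM in 5 or more libraries, with p-values adjusted over all of them by the Benjamini-Hochberg method and a threshold of 0.05. 6 of the 7 factors were tested. Sox7 entered only through its 5 FGF4 libraries. All differences are of mean log2(TPM + 1), a scale that understates the change of low genes, and no fold is given where a group is at 0 in every library. In a whole ICM, fewer primitive endoderm cells and less transcript per cell cannot be told apart. The labels do not say that embryos of a group were cultured separately, so the p-values measure the spread between embryos.

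LY against DMSO asks what the inhibitor does to these factors in an otherwise untreated embryo. Sox17 and Lmo2 fell, and Gata4 and Gata6 did not pass the test. Across all tested genes 0.374% passed, and 0.299% fell. Sox17 fell by 5.05 ± 0.74 on the log2 scale (SE, limma adjusted p = 0.000884) and Lmo2 by 3.58 ± 0.73 (adjusted p = 0.021). Gata4 gave -2.29 ± 0.82 (adjusted p = 0.321), with 5 of 7 LY libraries at 0, and Gata6 gave -0.59 ± 0.30 (adjusted p = 0.613). The fit shares 1 spread over the 4 groups, while the SD of Gata6 on this scale was 0.26 in DMSO and LY and 0.86 in LY+FGF4. With only the 2 groups in the fit the adjusted p of Gata6 was 0.111, and with library weights 0.0636, still short of the threshold. Lmo2 did not overlap between the groups, which held for 1.54% of tested genes in that direction. Foxq1 was at 0 in all LY libraries and in 3 of 5 DMSO libraries (adjusted p = 0.857).

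Other genes of the lineage were counted beside the members. Of 25 other primitive endoderm genes 22 were tested, 2 fell and none rose, with a median difference of -0.70 against -0.10 over all tested genes. The 2 were Sparc, which encodes a matrix protein (-2.13, limma adjusted p = 0.0259), and Pdgfra, a growth factor receptor on these cells (-2.71, adjusted p = 0.0455). Of 18 genes of the FGF/ERK pathway, Dusp4, an ERK phosphatase that ERK induces, fell (-3.36, adjusted p = 0.0228), and no related factor or partner (15 tested of 25), epiblast gene (13 of 14) or trophectoderm gene (13 of 17) passed the test. The call of Lmo2 was lost without DMSO replicate 6, 8 or 9 (adjusted p = 0.0538, 0.0679 and 0.059), and with relative depth or the count of listed genes as a covariate (adjusted p = 0.24 and 0.0809). Sox17 kept its call in each of these runs, and Gata4 gained one with library weights (-2.09, adjusted p = 0.0466).

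FGF4 against DMSO asks how the factors respond to an excess of the ligand. Gata4, Foxq1 and Sox17 rose, and Gata6 and Lmo2 did not pass the test. Gata4 rose by 4.18 ± 0.80 (SE, limma adjusted p = 0.00401), Foxq1 by 3.64 ± 0.69 (adjusted p = 0.00375) and Sox17 by 2.76 ± 0.73 (adjusted p = 0.0361). Of all tested genes 2.44% passed and 0.981% rose. Gata6 gave 0.29 ± 0.29, with a 95% confidence interval from -0.30 to 0.88 (adjusted p = 0.688), and Lmo2 0.24 ± 0.71 (adjusted p = 0.919). Sox17 and Gata4 were higher in every FGF4 library than in any DMSO library, as were 1.13% of tested genes. Sox7, at 0 in DMSO, did not pass (adjusted p = 0.0904).

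Other genes of the lineage and of the FGF pathway were also among those called. Of 22 tested other primitive endoderm genes 8 rose and 0 fell, with a median difference of 1.46 against -0.10 over all genes. Among them were Lamc1 (2.64, limma adjusted p = 0.000645) and Col4a1 (2.28, adjusted p = 0.00551), which encode basement membrane chains, Dkk1, a secreted WNT inhibitor (3.45, adjusted p = 0.0118), and Hspg2, the perlecan gene (3.02, adjusted p = 0.0247). Of the 18 FGF/ERK genes 5 rose, among them Fgfr2, an FGF receptor of primitive endoderm (2.38, adjusted p = 0.0378), and 1 fell, the embryo's own Fgf4. Of the 15 related factors Klf5, a zinc-finger factor of the early embryo, rose (1.18, adjusted p = 0.0113), and Gata1, the GATA factor known from blood, fell (adjusted p = 0.0188) and was at 0 in all 8 FGF4 libraries. Gata1 reached 1 TPM in 4 DMSO and 3 LY libraries and in no others, so it would not have been tested without the DMSO group. Of 13 epiblast genes 4 fell, Klf2, Utf1, Nanog and Prdm14, where 176 of all 12034 tested genes fell.

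Of 13 trophectoderm genes 3 fell with FGF4, Sfn, Aqp3 and Cldn4. The summed level of the whole list was lower in FGF4, at a median of 914 TPM against 1868 TPM in DMSO. With the trophectoderm score (mean log2(TPM + 1) of that list) as a covariate, Gata4, Foxq1 and Sox17 gave 2.68, 2.79 and 2.68 and lost their calls (limma adjusted p = 0.218, 0.156 and 0.25), and Gata6 turned to -0.19. The score itself averaged 3.87 ± 0.84 (SD) in FGF4 and 5.27 ± 0.45 in DMSO, so it goes with the treatment. Calls over all tested genes went from 294 to 15 with it, while the Sox17 difference was 2.76 without it. Whether outer cells account for the rise was not tested. The call of Sox17 was also lost without DMSO replicate 3, 6 or 7 (adjusted p = 0.0947, 0.073 and 0.167) or FGF4 replicate 1, 2, 3, 5 or 8 (adjusted p = 0.0596, 0.0628, 0.0500002, 0.05002 and 0.0566), and those of Gata4 and Sox17 with the relative depth as a covariate (adjusted p = 0.0556 and 0.0915). Sox17 also failed with a pseudocount of 0.1 (adjusted p = 0.231), with no filter (0.0549), with the count of listed genes (0.0529) and without the 6 libraries under 9000 genes (0.0705).

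LY+FGF4 against FGF4 asks whether the inhibitor acts when the ligand is supplied. Foxq1 fell and was the sole member past the threshold, where 3.55% of all tested genes passed and 2.83% fell. It fell by 2.69 ± 0.65 on the log2 scale (SE, limma adjusted p = 0.0187), from a mean of 25.6 ± 15.96 TPM to 4.88 ± 6.84 TPM. Sox7, present in 5 of 8 FGF4 libraries and at 0 in all 6 LY+FGF4 libraries, did not pass (adjusted p = 0.0582). Gata4 gave -1.72 ± 0.76 (adjusted p = 0.212), with its split between 4 high and 2 low libraries. Sox17 gave -0.63 with a 95% confidence interval from -2.03 to 0.78, Gata6 0.10 from -0.47 to 0.66, and Lmo2 0.61 from -0.77 to 1.98. A change of Gata6 by 1 log2 unit lies outside its interval, while such a change of Sox17 downward or of Lmo2 upward lies inside theirs. The Gata6 interval, however, uses 1 spread shared over the 4 groups. On this scale the SD of Gata6 was 0.86 in LY+FGF4 and 0.48 in FGF4, against 0.26 in DMSO and LY. The interval is thus too narrow for the groups compared, and such a change of Gata6 is not excluded.

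Around these factors, 5 of 22 other primitive endoderm genes fell and 1 rose, with a median of -0.71 where all tested genes had a median of -0.24. Those that fell included Hspg2 (-3.17, limma adjusted p = 0.0115), Cubn, an endocytic receptor (-2.01, adjusted p = 0.017), and Lama1, a laminin chain (-3.97, adjusted p = 0.026). Srgn, a proteoglycan gene, fell and was at 0 in all LY+FGF4 libraries (adjusted p = 0.0292). Srgn reached 1 TPM in 6 FGF4 and 3 DMSO libraries and in no others, so it entered the test only through the FGF4 group. Apoe, of lipid transport, rose (1.03, adjusted p = 0.0438). Of the related factors and partners Ldb1, whose product binds LIM proteins such as LMO2, rose (1.18, adjusted p = 0.0198), from 65.8 ± 24.8 to 148 ± 46.7 TPM, and of the FGF/ERK genes Fgfr1 rose (1.43, adjusted p = 0.017). The call of Foxq1 was lost without LY+FGF4 replicate 8 (adjusted p = 0.0509) and, without the 6 libraries under 9000 genes, which leaves 2 LY+FGF4 libraries, it gave -1.56 (adjusted p = 0.445), while Gata4 gave -0.07, Gata6 0.83 (adjusted p = 0.156) and Sox17 0.34. The call was also lost after quantile normalization, which moved the median of all genes from -0.24 to -0.01 (Foxq1 -2.22, adjusted p = 0.0572), and with the count of listed genes as a covariate (-2.11, adjusted p = 0.2), a pseudocount of 0.1 (adjusted p = 0.0518), only the 2 groups in the fit (0.118) or library weights (0.11).

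LY+FGF4 against LY asks whether the ligand raises the factors when the inhibitor is present. Sox17, Gata4, Lmo2 and Gata6 rose, where 6.3% of all tested genes passed and 1.79% rose. Sox17 rose by 7.18 ± 0.71 (SE, limma adjusted p = 3.24e-07), Gata4 by 4.75 ± 0.78 (adjusted p = 0.000596), Lmo2 by 4.42 ± 0.69 (adjusted p = 0.000347) and Gata6 by 0.98 ± 0.28 (adjusted p = 0.0365). For Sox17, Gata4 and Lmo2 every LY+FGF4 library lay above every LY library, as for 0.623% of tested genes. Even the 2 LY+FGF4 libraries with low Gata4 lay above the highest LY library, at 1.74 TPM. Foxq1, at 0 in LY and present in 4 of 6 LY+FGF4 libraries, did not pass (adjusted p = 0.104), but did with a pseudocount of 0.1 (0.0493) and without the 6 libraries under 9000 genes (0.0406), and Sox7 was at 0 in both groups. Without those libraries only LY+FGF4 replicates 6 and 7 are left, and both had Foxq1.

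In the same comparison 7 of 22 other primitive endoderm genes rose and 0 fell, with a median of 1.05 against -0.24 over all genes. Pdgfra rose by 4.23 (limma adjusted p = 9.74e-05), Sparc by 2.91, Dkk1 by 4.07 and Col4a1 by 2.24. Of 18 FGF/ERK genes 5 rose, with Dusp4 at 6.61 (adjusted p = 3.24e-07) and Fgfr2 at 4.57 (adjusted p = 7.55e-05), and Fgf4 fell. Of 13 epiblast genes 5 fell, among them Nanog (-4.13, adjusted p = 0.00978), and of 13 trophectoderm genes 3 fell. Over all 12034 tested genes 542 fell. The calls of Sox17, Gata4 and Lmo2 held in all alternatives tried. That of Gata6 was lost in 9 runs that left out a library, namely LY replicate 2, 3, 4, 5, 6 or 8 (adjusted p from 0.0507 to 0.0679) and LY+FGF4 replicate 2, 6 or 7 (adjusted p from 0.0796 to 0.095), and with no filter (0.0576), only the 2 groups in the fit (0.11), the count of listed genes (0.2) or the trophectoderm score (0.242).

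LY+FGF4 against DMSO sets the doubly treated embryos beside the controls. None of the 6 tested factors passed the limma test, where 9.5% of all tested genes did. Of all 12034 tested genes, 264 rose and 879 fell. Gata4 gave 2.46 ± 0.85 (adjusted p = 0.0646), Sox17 2.13 ± 0.77 (adjusted p = 0.077), Foxq1 0.95 ± 0.73, Lmo2 0.84 ± 0.75 and Gata6 0.39 ± 0.31. At an unadjusted p under 0.05, Gata4 and Sox17 would pass, where 2975 of all 12034 tested genes would. Of 22 other primitive endoderm genes 7 rose and none fell in this comparison, among them Dkk1 (3.01, adjusted p = 0.0191), Lamc1 (1.603, adjusted p = 0.02003), Apoe (1.21) and Col4a1 (1.75). Of the related factors Hnf4a, an endoderm factor, fell (-5.20, adjusted p = 0.0105). It was at 77.6 ± 21.7 TPM in DMSO and 13.2 ± 32.3 TPM in LY+FGF4, where 5 of 6 libraries were at 0. Lmo1, a paralogue of Lmo2 (-3.87, adjusted p = 0.0106), and Gata1 also fell, and Klf5 rose (1.199, adjusted p = 0.00614). LY+FGF4 had the lowest medians of listed genes and of depth among the groups. Calls over all tested genes went from 1143 to 75 with the count of listed genes as a covariate, and to 181 with relative depth. The genes named here outside the members were not followed through those runs. Gata4 passed without DMSO replicate 8 (3.03, adjusted p = 0.0346) or LY+FGF4 replicate 3 or 8 (3.04 and 3.17, adjusted p = 0.0203 and 0.0101), and Sox17 without LY replicate 7 or LY+FGF4 replicate 5 (adjusted p = 0.0493 and 0.043). With a pseudocount of 5 both passed (adjusted p = 0.0469 and 0.0249), and without the 6 libraries under 9000 genes Gata4 and Gata6 did (0.00628 and 0.0261). That last setting leaves only LY+FGF4 replicates 6 and 7, with Gata6 at 494 and 603 TPM. It drops replicates 3 and 8, which had low Gata4.

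The interaction asks whether the LY effect with FGF4 differs from that without it. None of the 6 tested factors passed the limma test, and 0.0499% of all genes did. Sox17 gave 4.42 ± 1.01 (SE, adjusted p = 0.143) and Lmo2 4.19 ± 0.99 (adjusted p = 0.198), each the excess of a small LY difference with FGF4 over a large one without it. Gata4 gave 0.57 ± 1.12 and Gata6 0.68 ± 0.40. At an unadjusted p under 0.05 Sox17 and Lmo2 would pass, where 726 of all 12034 tested genes would. Sox7 would pass too, but it entered the test through FGF4 libraries alone and is at 0 in the other 3 groups. Without DMSO replicate 7 or LY replicate 7 Sox17 passed (5.15 and 4.91, adjusted p = 0.0241 and 0.0272), these being the control with the least Sox17 and the LY library with the most.

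**Figure D3:**
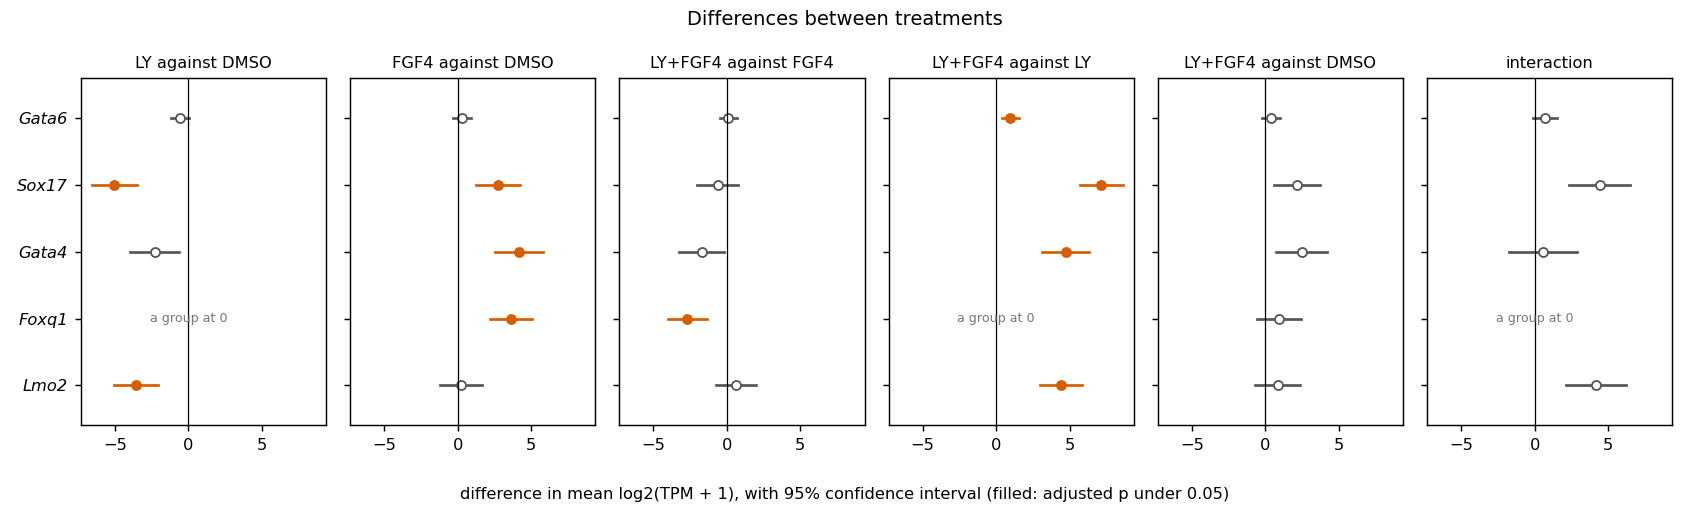
Difference in mean log2(TPM + 1) (horizontal axis) for 5 factors in each comparison, with its 95% confidence interval, filled where the limma adjusted p is under 0.05. The interaction is the LY difference with FGF4 minus that without it, and no value is drawn where a group is at 0 in every library. Sox17 lies at -5.05 in LY against DMSO and at 7.18 in LY+FGF4 against LY, and the intervals of Gata6 are the shortest.

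Nanog, the epiblast factor that opposes Gata6, was set against the members library by library. In DMSO it was at 152 to 198 TPM and in LY at 101 to 177 TPM, and the 3 LY libraries with any Sox17, replicates 5, 6 and 7, had the 3 lowest Nanog levels of that group, at 144, 114 and 101 TPM. In FGF4 Nanog was at 0 to 17.4 TPM in 7 libraries and at 176 TPM in replicate 6, which also had the lowest Gata4 of its group (34.1 TPM), the sole non-zero Fgf4 (5.72 TPM) and Sox17 at 530 TPM. In LY+FGF4 Nanog was at 0, 11.7, 64.6, 0, 2.50 and 105 TPM in replicates 2, 3, 5, 6, 7 and 8. The ligand gene Fgf4 was at 29.4 to 80.2 TPM in DMSO and 16.1 to 73.1 TPM in LY, and at 0 in all LY+FGF4 libraries. In LY+FGF4, replicate 8, which had the most Nanog, also had the lowest Gata6 and Gata4, while replicate 3 had low Gata4 beside low Nanog. Libraries with Nanog and Sox17 both above 100 TPM were thus found in DMSO, FGF4 and LY+FGF4.

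Over the 26 libraries Pearson's r with Nanog, on log2(TPM + 1), was -0.78 for Gata4, -0.71 for Foxq1, -0.69 for Gata6, -0.65 for Sox17 and -0.48 for Lmo2. With group means removed it was -0.56 for Gata4, -0.54 for Foxq1, -0.56 for Gata6, -0.29 for Sox17 and -0.10 for Lmo2. These are descriptions over libraries that share treatments and depth. Among the members, Gata4 and Foxq1 had the highest r (0.85, and 0.56 with group means removed). Gata4 and Sox17 had an r of 0.82, but 0.22 with group means removed, and 0.74 within LY, 0.27 within FGF4 and 0.10 within LY+FGF4. The value within LY rests on few low levels, since Gata4 was at 0 in 5 of 7 libraries and at most 1.74 TPM. Sox17 was at 0 in 4 of the LY libraries. Gata6 and Gata4 kept 0.63 of 0.74.

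**Figure D4:**
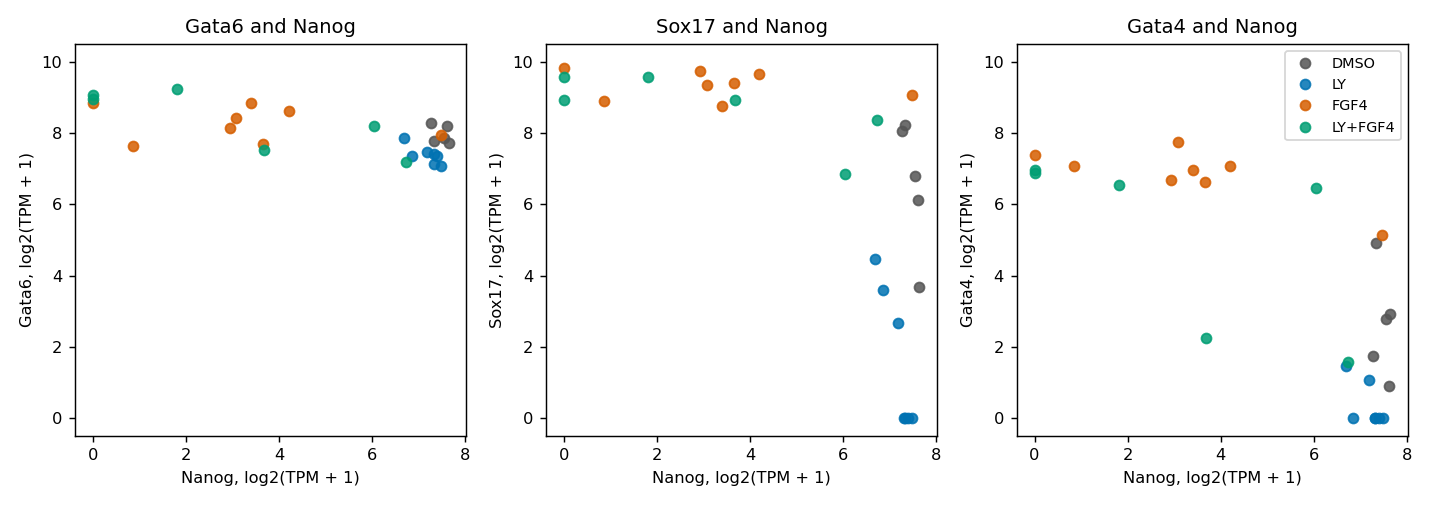
Gata6, Sox17 and Gata4 (vertical axes) against Nanog (horizontal axis), all as log2(TPM + 1), with 1 point per library coloured by treatment. LY points gather at high Nanog, with Sox17 at 0 in 4 of them and at 5.40 to 21.02 TPM in the 3 with the least Nanog, while most FGF4 and LY+FGF4 points lie at low Nanog and high Sox17, and Gata6 spans under 3 log2 units throughout.

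The genes most like each factor across the 26 libraries were named by Pearson's r of log2(TPM + 1), 3 per factor, with predicted and Y-linked genes, Xist and the members left out. For Sox17 they were Pdgfra (0.93), Dusp4 (0.92) and Fgfr2 (0.88), and for Gata4 they were Col4a1 (0.90), Uap1, an enzyme of amino sugar synthesis (0.89), and Spry4, an inhibitor of FGF signalling (0.87). Lmo2 was closest to Spry4 (0.81), Tomm40, a mitochondrial import pore gene (0.76), and Dusp4 (0.75). With group means removed Sox17 kept 0.63 with Pdgfra, Gata4 0.67 with Col4a1, and Lmo2 0.57 with Spry4. Sox17 then had 0.54 with Dusp4 and 0.51 with Fgfr2, and Gata4 0.61 with Uap1 and 0.40 with Spry4. Lmo2 had 0.58 with Tomm40 but only 0.22 with Dusp4.

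Gata6 had lower values, with Prrc2a (0.78), Col4a2, a collagen chain (0.76), and Pfkp, a glycolytic enzyme (0.76). Foxq1 was closest to Rhpn1 (0.91), Aqp8, a water channel (0.91), and Runx1 (0.88), and with group means removed kept 0.83, 0.84 and 0.57. Sox7 was closest to Srgn (0.89), Igf1 (0.80) and Vsx1 (0.79), but its values rest on 5 libraries above 0. Pdgfra, the receptor most like Sox17, averaged 78.3 ± 25.01 TPM in DMSO and 19.7 ± 20.8 TPM in LY, with 341 ± 99.6 TPM in FGF4 and 282 ± 232 TPM in LY+FGF4.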

How the data were processed

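The authors deposited 1 table of TPM values per gene symbol, with 1 column per single-ICM library. Trimming and de-duplication of the reads are recorded per the labels, and STAR, RSEM and mm10 per the submitters' processing notes. No version, annotation or strandedness is given in the sources used here. TPM values hold no read number, so no counting intervals are given. Each column was tied to its sample by the title. GENCODE M21 on GRCm38 matched 53255 of 55254 symbols and gave the coordinates. What 1 read is worth was estimated from the peak of TPM times length over 10190 genes with 1 transcript, and gives relative depth only.

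limma 3.58.1 in R 4.3.3 was fitted on log2(TPM + 1) with 1 mean per group over all 26 libraries, trend and robust empirical Bayes, two-sided, on genes that reached 1 TPM in 5 or more libraries. The fit was tested on simulated data. Python 3.11.15 was used for the rest. The rule for named genes takes the 7 members, up to 4 called genes per list, comparison and direction with the smallest p, and the 3 most correlated genes per member with a mean TPM of at least 1. The members, lists and tests were chosen with earlier results of these data known, and 1 gene list (trophectoderm) served as a marker check. Alternatives were the pseudocount (0.1 and 5), the filter on low values, quantile normalization, the libraries in the fit, library weights, 3 covariates, a replicate block and leaving out libraries. Relative depth as a covariate was added after seeing the data. Of the 7 members 1, Foxa2, matched the RefSeq promoter table, and no sequence is printed.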

Additional observations from a re-analysis of the deposited data

Results flagged for a closer look

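Within the treatments, 4 values lay apart from the rest of their group by Dixon's test on log2(TPM + 1), out of 23 combinations of factor and group with any spread, and chance alone marks about 1 in 20. For Foxa2 the mark follows from there being 1 value above 0 in the group, so that rate does not apply to its pair of marks. Foxq1 in DMSO was at 0 in 3 libraries and at 0.45 TPM in replicate 6, so the rate does not hold for its mark either. Gata4 in FGF4 replicate 6, at 34.1 TPM, lay below the other 7 FGF4 libraries, in the library that also kept Nanog at 176 TPM. Foxq1 in DMSO replicate 8, at 12.9 TPM, lay above the other controls, and Foxa2 was at 1.27 TPM there and at 0 in the other 4. That library also had the highest Gata4, Sox17 and Lmo2 of the controls. Foxa2 in LY+FGF4 replicate 6, at 14.1 TPM, was the sole value above 0 in its group.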

How the results depend on the processing

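Over the alternatives other than leaving out 1 library, the 10 differences of single factors that passed gave 120 values, of which 93 kept their call, 27 lost it and none turned. The 23 that did not pass gave 267 values, of which 252 stayed so, 11 gained a call and 4 turned. The cause of these changes was not tested. Those that turned were Gata6 in FGF4 against DMSO (-0.19) and in LY+FGF4 against DMSO (-0.081) with the trophectoderm score, Sox17 in LY+FGF4 against FGF4 without the libraries under 9000 genes (0.34) and the Gata4 interaction with a pseudocount of 5 (-0.32). Gata6 in LY+FGF4 against FGF4 turned without LY+FGF4 replicate 2, 6 or 7, and leaving out 1 library gave values from -0.080 to 0.33. Sox7 was not tested at a mean TPM of at least 5, nor without any of the FGF4 libraries that hold it.

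Members past the threshold numbered 2 in LY against DMSO, 1 with the number of genes or the relative depth as a covariate, 3 with library weights, and 0 with the replicate block (Sox17 adjusted p = 0.0848, Lmo2 0.167). In FGF4 against DMSO they numbered 3, then 0 with the trophectoderm score or the replicate block, 1 with relative depth, 2 with a pseudocount of 0.1, no filter, the number of genes or without the libraries under 9000 genes, and 4 with library weights (Sox7 adjusted p = 0.0189). In LY+FGF4 against FGF4 they numbered 1, and 0 after quantile normalization, with only the groups compared, with library weights, with the number of genes, with the replicate block and without the libraries under 9000 genes. In LY+FGF4 against LY they numbered 4, then 5 with a pseudocount of 0.1 or without those libraries and 3 with no filter, only the groups compared, the number of genes or the trophectoderm score. In LY+FGF4 against DMSO they numbered 0, then 2 with a pseudocount of 5 or without those libraries, and 1 after quantile normalization or with library weights. Leaving out 1 library gave 1 to 2, 2 to 4, 0 to 2, 3 to 4, 0 to 1 and, for the interaction, 0 to 1 members, in the order of the report. With a minimum of 5 TPM the median number of factors present was 5 in FGF4 and 4 in LY+FGF4.

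All genes past the threshold numbered 45 in LY against DMSO, and 161 with only the groups compared, 496 with library weights, 19 with the number of genes, 5 with the replicate block, 130 without the libraries under 9000 genes and 7 with relative depth (16 to 61 leaving out 1 library). For FGF4 against DMSO they were 294, and 1074 with weights, 181 with the number of genes, 15 with the trophectoderm score, 41 with the block, 464 without those libraries and 100 with depth (112 to 431). For LY+FGF4 against FGF4 they were 427, and 73 with only the groups compared, 111 with weights, 187 with the number of genes, 224 with the block, 169 without those libraries and 275 with depth (282 to 589). For LY+FGF4 against LY they were 758, and 320 with only the groups compared, 356 with weights, 108 with the number of genes and 281 with the trophectoderm score (528 to 872). For LY+FGF4 against DMSO they were 1143, and 75 with the number of genes, 351 with the trophectoderm score, 460 with the block, 601 without those libraries and 181 with depth (672 to 1285). For the interaction they were 6, and 2 with the block and 28 without those libraries (2 to 11). Quantile normalization moved the share of called genes that rose from 20.4% to 40.2% in LY+FGF4 against FGF4, from 28.5% to 39.9% against LY and from 23.1% to 41.3% against DMSO.

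Replicate numbers recur between groups, but the labels tie them to no litter or day. The 31 same-numbered pairs had residual correlations from -0.08 to 0.07, none above 0.1, and 2 of 26 libraries were closest to one of their own number. Such correlations cannot show whether same-numbered samples shared a litter or day.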
